A study of Mus musculus with 8 samples.

Results

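The IL-6 family cytokines, their receptors and the STAT3 axis were read in 2D- and 3D-cultured adipose-derived stem cells (ADSCs) of the mouse. The group held 10 genes, chosen by symbol from 24346 genes listed per library: the ligands Il6, Il11, Lif and Clcf1, the receptor chains Il6ra, Il6st, Lifr and Osmr, the transcription factor Stat3 and the feedback inhibitor Socs3. All 10 were above 0 in at least 1 library and entered the comparison, which covered 18862 genes. Cells came from the gonadal adipose tissue of wild-type male BALB/c mice aged 12 weeks in both cultures. They were grown in 2D culture (4 libraries, mice 2, 3, 4 and 5) or in Matrigel, a basement membrane gel, as 3D organotypic culture (4 libraries, mice 1, 4, 5 and 7). Mice 4 and 5 gave a library of each culture. The 3D library of mouse 1 has a different ending in its description label than the other 3D libraries, while its title and group label give 3D culture. Which Wnt3a- and R-Spondin1-conditioned medium and which passage the sequenced 3D cultures had is not given in the sources used here, so gel, medium and passage cannot be told apart.

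Cytokines of the IL-6 family share the signalling chain gp130, the product of Il6st. IL-6 and IL-11 first bind a chain of their own, IL-6R (Il6ra) or IL-11R alpha (Il11ra1), and then pair gp130 with itself, while LIF and cardiotrophin-like cytokine (Clcf1) signal through gp130 with the LIF receptor (Lifr), and oncostatin M through gp130 with its own receptor (Osmr). The bound JAK kinases phosphorylate STAT3, which enters the nucleus and induces, among others, Socs3, whose product binds gp130 and the kinases and ends the signal. Stromal cells of adipose tissue are a known source of IL-6, and LIF is known for holding mouse embryonic stem cells in the undifferentiated state. RNA levels do not report phosphorylation of STAT3, which was not analysed here.

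The libraries held an estimated 14.5 to 17.3 M fragments each and between 15378 and 16134 genes above 0. Log2 expression correlated at 0.93 to 0.97 within 2D libraries, at 0.93 to 0.97 within 3D libraries and at 0.76 to 0.82 between the cultures, across 18862 genes that are not independent replicates. The cell type label of both cultures is mesenchymal stem cells. In deposited FPKM (fragments per kilobase of transcript, scaled to the fragments of the library), the stromal markers Pdgfrb, Dcn, Lum and Twist2 were at 0 in all 4 3D libraries, where Col1a1 reached at most 0.123, against 295 to 824 in 2D. Of the 14 stromal markers 10 fell, 1 rose and 3 did not pass the test, a called share of 78.6% beside 41.5% of all genes. Their sum was 2141 to 4492 in 2D and 129 to 2660 in 3D. Ly6a, the one that rose, lay at 26.0 to 189 in 2D and at 50.3 to 2607 in 3D, where it made up most of the sum outside mouse 1, and Cd44 lay at 52.9 to 89.7 in 3D. The epithelial marker Epcam lay at 212 to 416 in 3D and at most at 0.0310 in 2D. The summed level of 6 mesothelial markers was 884 and 2246 in the 2D libraries of mice 3 and 4, and 0.359 to 30.6 in the other libraries. Macrophage markers summed to 103 to 138 in 3D and 4.11 to 24.7 in 2D, with Adgre1 and Lyz2 at 0 in all 3D libraries and Cd14 at 68.2 to 131 carrying most of the 3D sum. Endothelial markers summed to at most 6.50, lymphocyte markers to at most 0.318, adipocyte markers to at most 0.314 and epididymal markers to at most 5.66 in any library. In bulk libraries, fewer cells of a type and less RNA per cell cannot be told apart.

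Of the 10 genes, the cytokines Il6 and Il11 fell in 3D culture, none rose, and the other 8 did not pass the test (limma, Benjamini-Hochberg adjusted p below 0.05 over all genes tested). At an unadjusted p below 0.05 the members were the same 2, beside 9259 of all 18862 genes. At the adjusted threshold 41.5% of all 18862 genes were called, 21.2% as higher and 20.3% as lower in 3D. The members' median change was -0.01 on the log2 scale, beside 0.00 for all genes tested. The 2D and 3D libraries did not overlap for 2 of the 10 members, again Il6 and Il11, and 42.5% of all genes did not overlap. Unless stated otherwise, levels below are quantile-normalized FPKM and changes are 3D minus 2D of log2(FPKM + 1), a scale that understates the change of low genes. The plot of member levels by library shows every value.

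**Figure D1:**
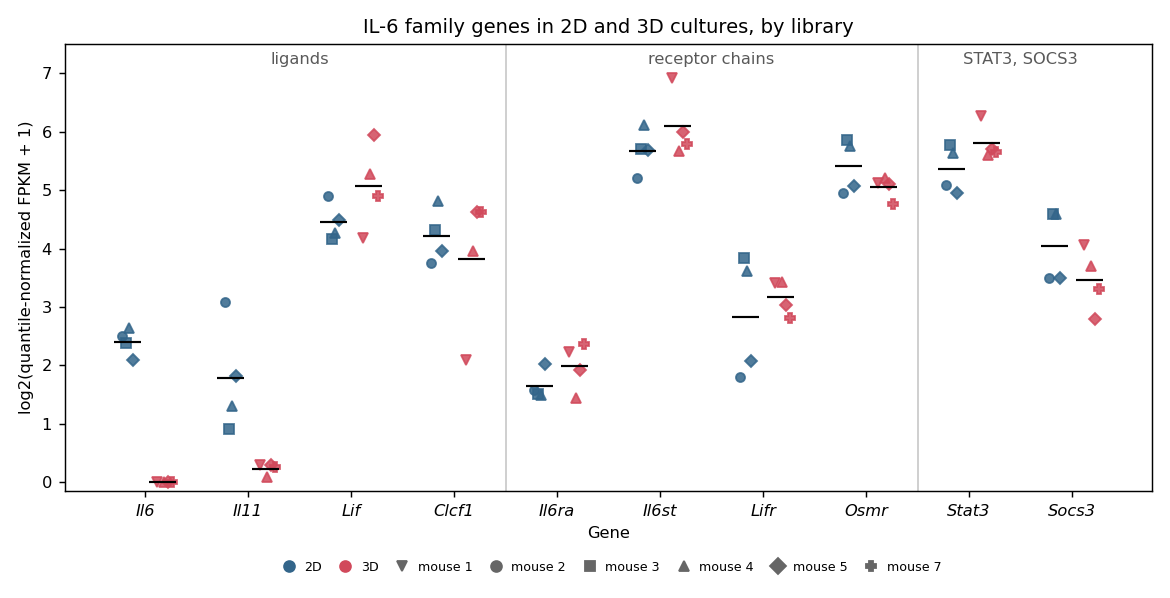
Log2 of quantile-normalized FPKM + 1 (vertical axis) for each of the 10 members (horizontal axis), 2D libraries in blue and 3D libraries in red, each symbol 1 mouse and each bar the mean of 4 libraries. Il6 was at 0 in all 3D libraries and Il11 was below every 2D library there, while the points of the other 8 genes overlapped between the cultures.

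Il6 (chr5:30013114-30019981, plus strand, GRCm38) encodes the founding cytokine of the family. Its normalized level was 4.66, 4.2, 5.24 and 3.27 FPKM in 2D culture (mice 2, 3, 4 and 5), and it was listed at 0 in all 4 3D libraries. Every 2D library thus held Il6, and in 3D it was not detectable at this depth. The mean was 4.34 ± 0.834 FPKM (SD, n = 4) in 2D against 0 in 3D, a log2 change of -2.40 (SE 0.13, adjusted p = 9.6e-06, limma). Within mice the difference was -2.64 for mouse 4 and -2.09 for mouse 5. At the estimated depths the 2D values stand for about 43, 43, 55 and 29 fragments, and 3 fragments in a 3D library would have given at most 0.317 FPKM, so that Il6 was at least 12.2-fold lower in 3D on the deposited scale. In the fit that blocks on the mouse, with 1 residual degree of freedom, Il6 changed by -2.37 (adjusted p = 0.114, limma) and no gene of the table was called. Over 17 alternative settings the adjusted p ranged from 2.1e-06 to 0.114.

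Il11 (chr7:4772373-4782859, minus strand) encodes interleukin-11, a cytokine of stromal cells known for its part in fibrosis. Its normalized level was 7.53, 0.877, 1.48 and 2.51 FPKM in 2D (mice 2 to 5) and 0.232, 0.0686, 0.225 and 0.196 FPKM in 3D (mice 1, 4, 5 and 7). All 2D libraries lay above all 3D libraries, and the library of mouse 2 stood above the other 2D libraries. The means were 3.10 ± 3.03 and 0.180 ± 0.0761 FPKM, a log2 change of -1.55 (SE 0.43, adjusted p = 0.0219, limma), and the ratio of the means was 17.2, or 9.01 without the 2D library of mouse 2. On the deposited values the ratio was 12.8, or 6.56 without that library. In 3D the values stand for only about 5, 1, 3 and 3 fragments, and 2 of the 4 libraries were at or under the level of 3 fragments. The call was lost without the 3D library of mouse 4 (adjusted p = 0.0557), without that of mouse 5 (adjusted p = 0.0505) and with the mouse as a block (adjusted p = 0.119, log2 change -1.37), and over 17 alternatives in limma the adjusted p ranged from 0.0042 to 0.119. Without the 2D library of mouse 2 the log2 change was -1.13.

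Since Il6 and Il11 fell together, their promoters are shown, with the 250 bases before the RefSeq start of transcription (GRCm38.p6) in lower case and motif matches in capitals, 5′ to 3′ on the strand of the gene. The promoters of Lif and Socs3 are shown for comparison, as a ligand that stayed present in both cultures and as the classical STAT3 target. RefSeq windows were found for 9 of the 10 members.
Il6, chr5:30012864-30013113, plus strand: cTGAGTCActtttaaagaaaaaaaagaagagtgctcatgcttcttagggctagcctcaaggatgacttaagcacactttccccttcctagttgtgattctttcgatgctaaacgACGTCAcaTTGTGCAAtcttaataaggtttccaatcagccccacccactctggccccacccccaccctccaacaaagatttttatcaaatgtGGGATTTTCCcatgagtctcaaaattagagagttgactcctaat
Il11, chr7:4778142-4778391, minus strand: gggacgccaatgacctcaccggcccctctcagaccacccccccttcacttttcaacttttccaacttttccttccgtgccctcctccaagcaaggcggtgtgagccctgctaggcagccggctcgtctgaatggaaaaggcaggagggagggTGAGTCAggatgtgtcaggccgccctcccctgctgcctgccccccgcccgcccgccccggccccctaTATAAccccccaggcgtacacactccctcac
Lif, chr11:4257318-4257567, plus strand: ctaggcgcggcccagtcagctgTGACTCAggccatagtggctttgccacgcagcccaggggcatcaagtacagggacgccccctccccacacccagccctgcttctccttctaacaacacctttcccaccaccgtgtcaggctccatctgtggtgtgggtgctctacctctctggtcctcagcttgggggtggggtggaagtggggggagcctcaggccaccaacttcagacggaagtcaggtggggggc
Socs3, chr11:117969367-117969616, minus strand: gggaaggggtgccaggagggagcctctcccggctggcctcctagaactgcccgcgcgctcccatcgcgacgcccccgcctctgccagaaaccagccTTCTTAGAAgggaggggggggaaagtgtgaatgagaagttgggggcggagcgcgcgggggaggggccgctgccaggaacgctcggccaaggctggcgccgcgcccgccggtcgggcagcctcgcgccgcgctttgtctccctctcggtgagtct
The motifs were searched on both strands, none overlapping another in these 4 windows, and were chosen after the windows had been seen. The Il6 window held AP-1 (TGANTCA) 249 bases, the core of a cAMP response element (TGACGT) 136 bases, C/EBP (TTGNGCAA) 128 bases and NF-kappaB (GGGANTTTCC) 44 bases before the start. The Il11 window held AP-1 98 bases and TATA (TATAA) 31 bases before the start. The Lif window held AP-1 228 bases before the start, and the Socs3 window a STAT motif (TTCNNNGAA) 154 bases before it. Over 32851 promoter windows of this length, AP-1 was found in 6.75%, the cAMP response element core in 6.47%, C/EBP in 2.61%, NF-kappaB in 0.356%, TATA in 22.8% and the STAT motif in 7.02%. A second Il11 window upstream held none of these letters. The matches describe letters and not binding.

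Lif (chr11:4257557-4272514, plus strand) was the ligand with the highest level in 3D. Its normalized level was 28.7, 17, 18.2 and 21.5 FPKM in 2D and 17.1, 37.5, 60.6 and 29.0 FPKM in 3D. On this scale the 3D libraries of mice 4, 5 and 7 lay above all 2D libraries, whereas that of mouse 1 lay with the lowest 2D library. In deposited FPKM the 3D library of mouse 7, at 26.8, lay below the 2D library of mouse 2, at 31.6. The means were 21.3 ± 5.27 and 36.1 ± 18.4 FPKM (SD, n = 4 each), a log2 change of 0.62 (95% interval -0.21 to 1.46) that did not pass the test (adjusted p = 0.208, limma). Within mice Lif was higher in 3D by 1.01 for mouse 4 and by 1.45 for mouse 5. Without the 3D library of mouse 1 the log2 change was 0.93 (adjusted p = 0.0375, limma), and over 17 alternatives the adjusted p ranged from 0.0375 to 0.569.

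Clcf1 (chr19:4214238-4223490, plus strand) encodes a ligand of the ciliary neurotrophic factor receptor. Clcf1 lay at 12.6, 18.9, 27.1 and 14.5 FPKM in 2D and at 3.28, 14.5, 23.7 and 23.6 FPKM in 3D. The cultures overlapped, and the 3D library of mouse 1 was the lowest of all 8. The log2 change was -0.39 (95% interval -1.71 to 0.94, adjusted p = 0.611, limma). Without the 3D library of mouse 1, in which Lif was also the lowest of the 3D libraries, the log2 change of Clcf1 was 0.19.

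FPKM values are per length, so that levels of different ligands can be set side by side within a library. In deposited FPKM, the summed level of the 4 ligands was 54.7, 41.3, 53.4 and 42.5 in 2D and 21.1, 47.8, 73.4 and 49.2 in 3D. In 2D, Lif made up 47.2% ± 10.8 of this sum, Clcf1 39.3% ± 13.6, Il6 8.07% ± 1.5 and Il11 5.47% ± 4.84 (SD, n = 4). The ranges of Lif and Clcf1 overlapped in 2D, as did those of Il6 and Il11, and both of the former lay above both of the latter in every library. In 3D, Lif made up 68.3% ± 10.5, Clcf1 31.1% ± 11.0 and Il11 0.646% ± 0.719, with Il6 at 0. Lif was above Clcf1 in all 4 3D libraries and in 2 of the 4 2D libraries. Thus Lif and Clcf1 were the leading ligands in both cultures and Il6 and Il11 were minor ones, a description for which no test was made. The plot of shares by library gives these values.

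**Figure D2:**
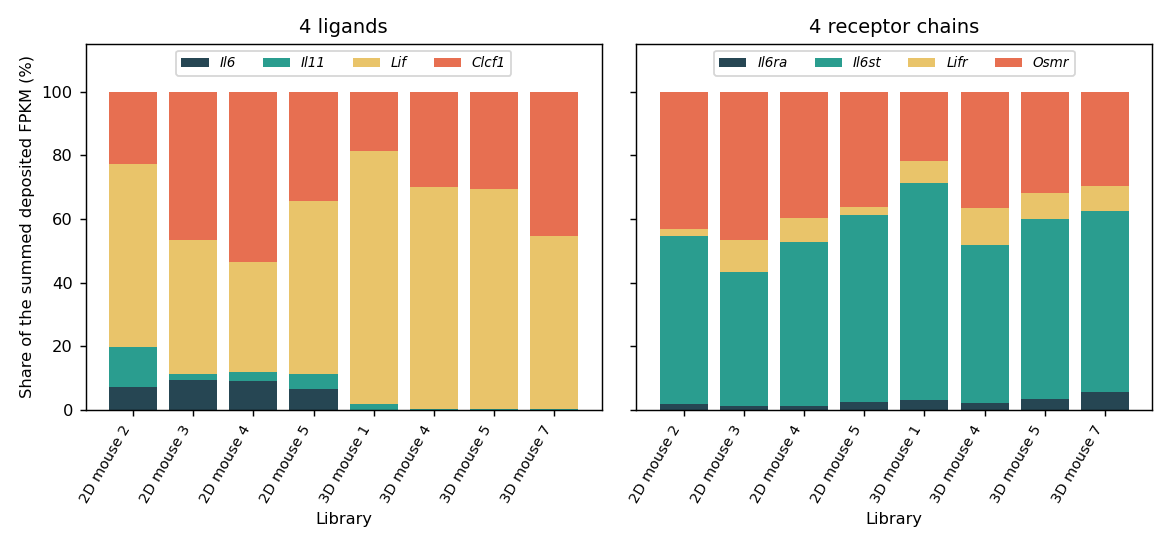
Share in percent of each ligand (of the 4 ligands) and of each receptor chain (of the 4 chains) in the summed deposited FPKM of each library, as stacked bars from 0. Lif and Clcf1 filled most of every ligand bar, Il6 was at 0 in the 3D bars, and Il6st and Osmr filled most of every receptor bar.

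Among the receptors, none of the 4 chains passed the test. Il6st (chr13:112464070-112510086, plus strand), the chain shared by the whole family, lay at 35.8, 51.3, 68.2 and 50.4 FPKM in 2D and at 120.5, 49.7, 62.7 and 54.5 FPKM in 3D. The 3D library of mouse 1 stood above the rest and the others overlapped with 2D. The log2 change was 0.42 (95% interval -0.29 to 1.13, adjusted p = 0.313, limma), and with the mouse as a block it was -0.07. Gp130 RNA was therefore present at a high level in every library of both cultures. Osmr (chr15:6813577-6874969, minus strand), the oncostatin M receptor, lay at 29.8, 56.9, 52.7 and 32.7 FPKM in 2D and at 33.7, 36.0, 33.4 and 26.2 FPKM in 3D. The 2D libraries of mice 3 and 4, which hold the mesothelial markers, were the highest. The log2 change was -0.36 (95% interval -0.88 to 0.17, adjusted p = 0.250, limma). On the values as deposited all 2D libraries lay above all 3D libraries and Osmr was called (log2 change -0.63, adjusted p = 0.0464), whereas without the 2D libraries of mice 3 and 4 the change was 0.04 (adjusted p = 0.837), these being the ends of the range over 17 alternatives.

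Lifr (chr15:7090614-7197489, plus strand), the LIF receptor, divided the 2D libraries. It lay at 2.49 and 3.20 FPKM in mice 2 and 5, at 13.3 and 11.3 FPKM in mice 3 and 4, and at 9.60, 9.76, 7.23 and 6.04 FPKM in 3D (mice 1, 4, 5 and 7). All 3D libraries fell between the lower and the higher pair of 2D libraries. The log2 change was 0.34 (95% interval -0.79 to 1.47, adjusted p = 0.60, limma). Without the 2D libraries of mice 3 and 4 it was 1.23 (adjusted p = 0.0083), and over 17 alternatives the adjusted p ranged from 0.0083 to 0.999. Il6ra (chr3:89864059-89913196, minus strand), which lets a cell respond to IL-6 itself, was the lowest of the chains. It lay at 1.98, 1.87, 1.84 and 3.09 FPKM in 2D and at 3.71, 1.71, 2.79 and 4.15 FPKM in 3D. The cultures overlapped, the log2 change was 0.33 (95% interval -0.23 to 0.89, adjusted p = 0.312, limma), and within mice 4 and 5 it was -0.07 and -0.11. Under upper quartile scaling Il6ra was called as higher in 3D (0.71, adjusted p = 0.0415, range 0.0415 to 0.866 over 17 alternatives).

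In deposited FPKM, Il6st made up 51.2% ± 6.92 of the 4 receptor chains in 2D and 57.8% ± 7.67 in 3D (SD, n = 4). Osmr made up 41.4% ± 4.45 and 30.0% ± 6.27, Lifr 5.69% ± 3.79 and 8.68% ± 1.89, and Il6ra 1.74% ± 0.616 and 3.53% ± 1.40. The order by mean share was the same in both cultures, from Il6st over Osmr and Lifr to Il6ra. In 2D the ranges of deposited levels overlapped between Il6st and Osmr and between Lifr and Il6ra, whereas in 3D no neighbours in the order overlapped. In the 2D library of mouse 3 Osmr was above Il6st.

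Stat3 (chr11:100885098-100939540, minus strand) lay at 32.8, 53.5, 49.0 and 30.1 FPKM in 2D and at 76.4, 47.5, 51.3 and 49.2 FPKM in 3D. The 2D libraries of mice 3 and 4 lay with the 3D libraries, those of mice 2 and 5 below them. The means were 41.3 ± 11.6 and 56.1 ± 13.6 FPKM, a log2 change of 0.45 (95% interval -0.09 to 0.98, adjusted p = 0.164, limma). Without the 2D libraries of mice 3 and 4 Stat3 was called as higher in 3D (0.78, adjusted p = 0.0300), and over 17 alternatives the adjusted p ranged from 0.0300 to 0.743. Socs3 (chr11:117966079-117970047, minus strand) lay at 10.3, 23, 23 and 10.3 FPKM in 2D and at 15.6, 12.1, 5.95 and 8.87 FPKM in 3D. Here too the 2D libraries of mice 3 and 4 were the highest of all 8, and those of mice 2 and 5 lay within the 3D range. The log2 change was -0.58 (95% interval -1.44 to 0.29, adjusted p = 0.256, limma), within mice 4 and 5 it was -0.88 and -0.70, and without the 2D libraries of mice 3 and 4 it was -0.03.

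The members Lifr, Osmr, Stat3, Socs3 and Clcf1 were each higher in the 2D libraries of mice 3 and 4 than in those of mice 2 and 5. Il11 and Lif were each lower, and both directions also held in deposited FPKM. On the normalized scale only, Il6st was higher too (51.3 and 68.2 against 35.8 and 50.4 FPKM) and Il6ra lower (1.87 and 1.84 against 1.98 and 3.09 FPKM). How many of all genes divide the 2D libraries in this way was not counted. The same 2 libraries held the mesothelial markers, among them Msln at 256 and 785 deposited FPKM, against at most 0.241 in the other 2D libraries. The part of these cells in the levels of the dividing genes was not tested. Without both libraries, an alternative chosen after the data were seen, 4 of 10 members were called, beside 7766 of 18428 genes. Il6 and Il11 were called as lower and Lifr and Stat3 as higher in 3D. Il6 was at 4.2 and 5.24 FPKM with, and at 4.66 and 3.27 FPKM without these markers, so that its level did not divide the 2D libraries in this way. The plot of 4 of these genes beside the mesothelial markers and the plot of fitted changes show both patterns.

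**Figure D3:**
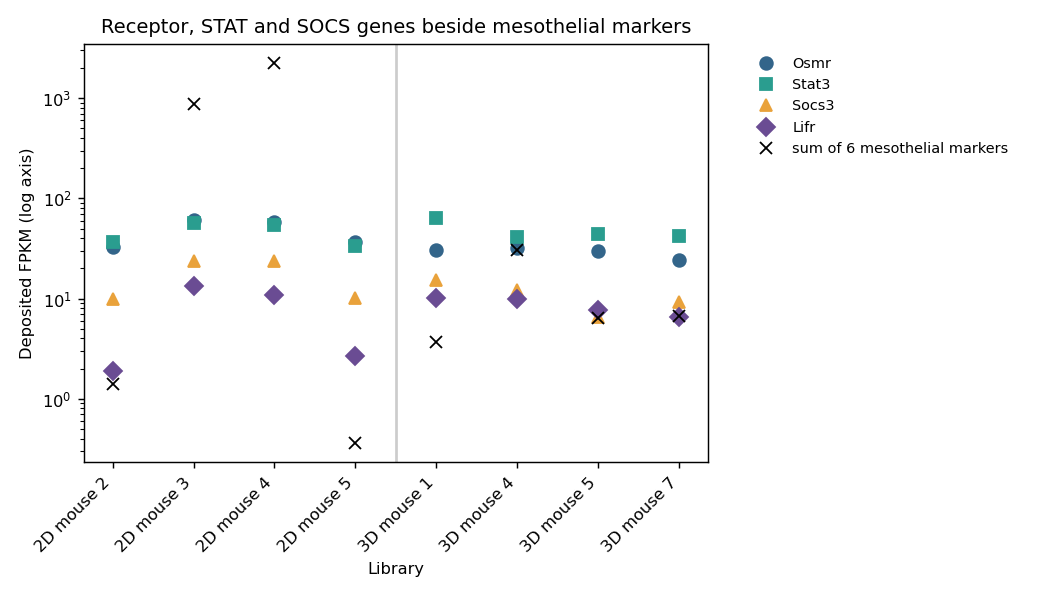
Deposited FPKM (log axis) of Osmr, Stat3, Socs3 and Lifr and the sum of 6 mesothelial markers in each of the 8 libraries, each symbol 1 gene or sum. The mesothelial sum was 884 and 2246 in the 2D libraries of mice 3 and 4, in which Lifr and Socs3 were also higher than in the other 2D libraries.

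**Figure D4:**
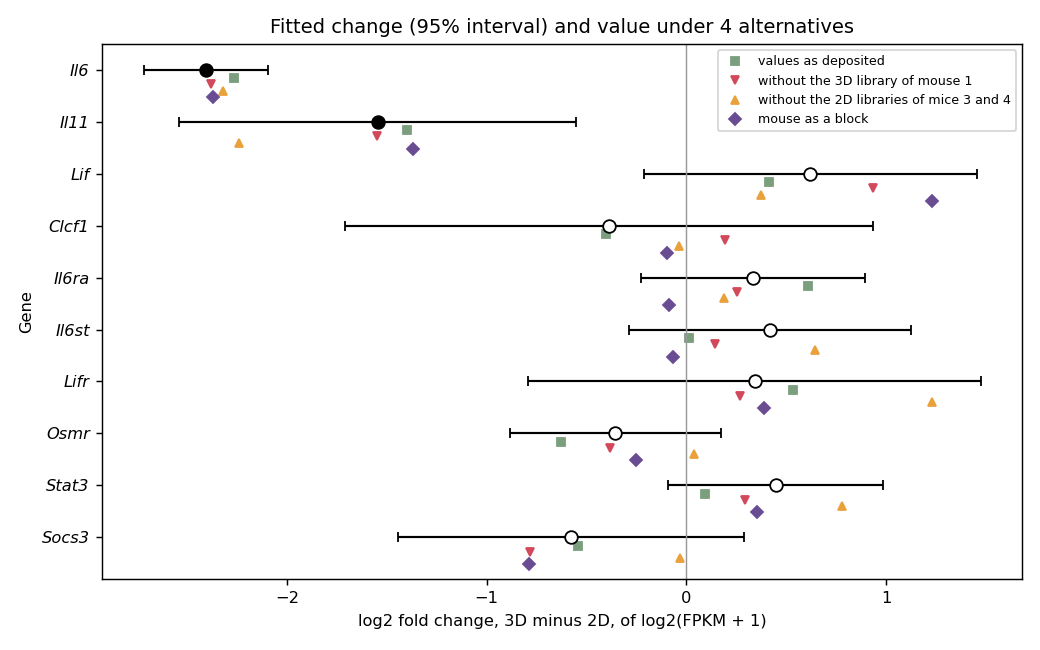
Fitted log2 fold change of each member, 3D minus 2D, with its 95% interval (black, filled where the adjusted p was below 0.05), and its value under 4 alternatives (coloured symbols). The intervals of Il6 and Il11 lay below 0 and those of the other 8 members crossed 0.

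Beyond the 10 members, 69 of 72 listed genes of the pathway were tested, and 14 rose, 13 fell and 42 did not pass the test. The called share was 39.1%, beside 41.5% of all genes, and the median log2 change was 0.10. With the mouse as a block none was called by limma, and 23 had an unadjusted p below 0.05, beside 5216 of all 18862 genes. Of the 6 other ligands tested none was called, while 3 had an unadjusted p below 0.05 (limma), beside 9259 of all 18862 genes. The ligand Osm, oncostatin M itself, was above 0 in 1 library only, the 2D library of mouse 2, and Il27, Il31 and the receptor Il11ra2 were listed at 0 throughout. Of the 5 other receptors tested 3 fell and none rose, with a median of -0.52 and a called share of 60% beside 41.5% of all genes. Of these 3, Il27ra and Il12rb1 were low in both cultures, with means of 0.783 and 0.526 FPKM in 2D and 0.0396 and 0.0418 FPKM in 3D. The other was Il11ra1, the receptor chain of IL-11, named after its values were seen. Il11ra1 lay at 12.3, 12.9, 16.5 and 13.8 FPKM in 2D and at 5.08, 6.47, 6.21 and 9.27 FPKM in 3D. All 2D libraries lay above all 3D libraries, and the log2 change was -0.96 (SE 0.18, adjusted p = 0.0036, limma). The ligand Il11 and its receptor chain were thus both lower in 3D.

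Of the 11 kinases and adaptors, 2 rose, 3 fell and 6 did not pass, a called share of 45.5% beside 41.5% of all genes. Jak3, a kinase best known from lymphoid cytokine receptors, rose from 1.30 ± 0.244 to 8.41 ± 2.11 FPKM (log2 change 2.01, SE 0.19, adjusted p = 0.00015, limma). Tyk2 rose from 7.36 ± 0.837 to 10.5 ± 2.12 FPKM (0.45, adjusted p = 0.0444), a call lost in 9 of 17 alternatives. Jak1, the main kinase at gp130, lay at 42.2 ± 1.79 and 57.7 ± 18.6 FPKM (0.40, adjusted p = 0.135), and Jak2 at 24.1 ± 5.22 and 28.8 ± 10.8 FPKM (0.20, adjusted p = 0.575). The kinases that serve gp130 were thus present in both cultures. The adaptor Gab2 fell from 8.35 ± 1.00 to 1.47 ± 0.458 FPKM (-1.93).

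Of the 6 other STATs, 1 rose and 5 did not pass, a called share of 16.7% beside 41.5% of all genes. Stat2, a factor of type I interferon signalling, divided the 3D libraries, at 9.74 FPKM in 3D culture of mouse 1 and 71.9 to 125.2 FPKM in the other 3D libraries, and was called in all libraries (2.42, SE 0.80, adjusted p = 0.0439), though 9 of 17 alternatives lost the call. Without the 3D library of mouse 1 its log2 change was 3.27 (adjusted p = 0.0014, limma), with a range of 0.0014 to 0.111 over the alternatives. Stat3 did not follow this division, since the 3D library of mouse 1 held the highest Stat3 level of all 8.

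Of the 15 inhibitors, 4 rose, 1 fell and 10 did not pass, a called share of 33.3% beside 41.5% of all genes. The phosphatase gene Ptpn6 (SHP-1) rose from 0.121 ± 0.0982 to 9.54 ± 1.11 FPKM (log2 change 3.23, SE 0.14, adjusted p = 2.9e-06, limma). Cish rose from 3.40 ± 1.62 to 9.10 ± 3.78 FPKM (1.18) and Socs2 from 13.2 ± 5.62 to 26.7 ± 6.18 FPKM (1.02), both calls lost in 7 of 17 alternatives. These 2 genes are known targets of STAT5. Socs5 fell from 37.8 ± 7.62 to 12.4 ± 1.30 FPKM (-1.52, SE 0.15). Socs3, the member that acts on gp130, was not called.

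Of the 23 genes known as STAT3 targets, 6 rose, 6 fell and 11 did not pass, with a median of 0.53 and a called share of 52.2% beside 41.5% of all genes. Lcn2, lipocalin-2, an iron-scavenging acute-phase protein of epithelia, rose from 0.396 ± 0.466 to 5610 ± 1772 FPKM (log2 change 11.99, SE 0.29, adjusted p = 1.8e-07, limma). Muc1, an epithelial mucin, rose by 2.79, Lrg1, a secreted acute-phase glycoprotein, by 2.77 and Ccnd1, cyclin D1, by 1.06. On the values as deposited, where the libraries overlap, Ccnd1 changed by 0.49 (adjusted p = 0.140, limma), and under upper quartile scaling by 0.63 (adjusted p = 0.0599), with a range of 0.0017 to 0.140 over 17 alternatives. In the other direction, Timp1, an inhibitor of metalloproteinases, fell from 1012 ± 356 to 2.55 ± 0.661 FPKM (-8.11, SE 0.27). The kinase gene Pim1 (-3.31), the survivin gene Birc5 (-2.18) and the IL-4 receptor gene Il4ra (-1.98) fell as well. The targets on the rising side include genes of epithelia, a class whose markers summed to 2241 to 2702 deposited FPKM in 3D and 32.8 to 783 in 2D, and the part of this difference in the counts was not tested. Of the 3 genes of receptor shedding 1 was called, a share of 33.3% beside 41.5% of all genes. It was the protease gene Adam17, whose product cleaves IL-6R from the cell surface, and it rose (0.89, SE 0.11, adjusted p = 0.00041, limma). The plot of pathway lists gives every gene tested.

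**Figure D5:**
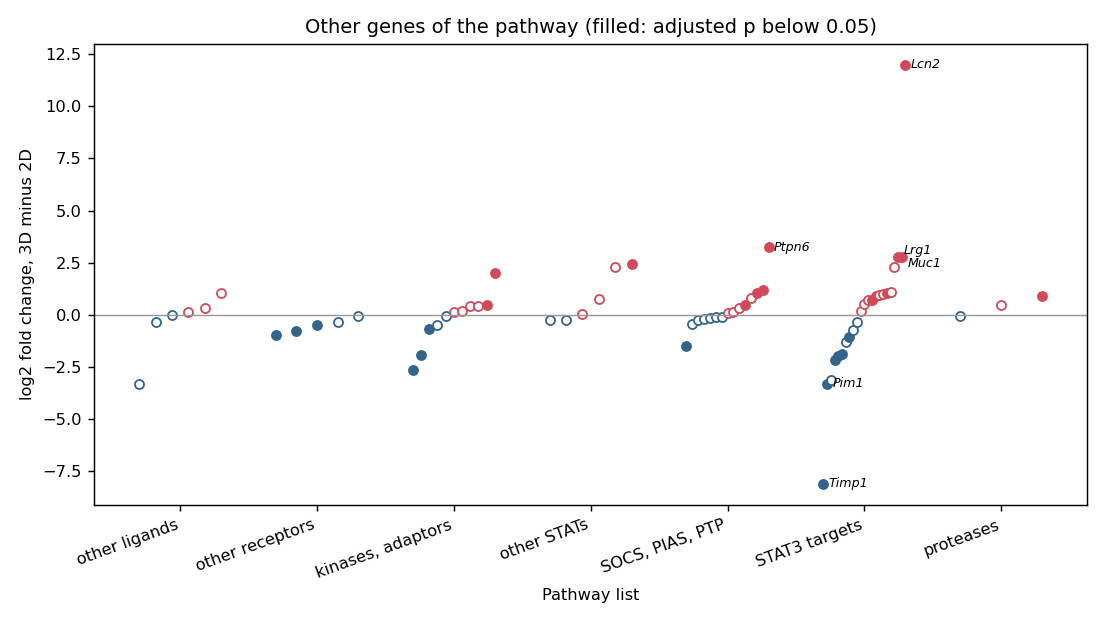
Log2 fold change, 3D minus 2D, of each of the 69 tested pathway genes by list, filled where the adjusted p was below 0.05, red above 0 and blue below. Lcn2 rose by 11.99 and Timp1 fell by 8.11 within the same list of STAT3 targets, and every list but the other ligands held at least 1 called gene.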

How the data were processed

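Total RNA of 8 ADSC cultures was sequenced after depletion of ribosomal RNA. The authors used FASTX_Trimmer and BBMap to trim the paired-end reads, TopHat to map them (to mm10, per the submitters' processing notes) and Cufflinks to compute the deposited FPKM values per gene, without read counts and without the quantile normalization that the methods name next. The annotation used is not given in the sources used here. Members were taken by symbol. The members and all lists were chosen with earlier results of these data known.

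Of 24346 genes listed, 5484 at 0 in every library were left out. The FPKM values of the other 18862 genes were quantile normalized, a pseudocount of 1 was added, and log2 values were fitted with limma 3.58.1 in R 4.3.3 (intensity trend, no covariates, two-sided, Benjamini-Hochberg adjustment over all genes). Library depth was estimated from the FPKM steps of 875 single-transcript genes, of whose low values 63.7% to 78.6% lay within 0.1 of a whole multiple, and fragment numbers derived from it are approximate, cover counting error only and used the shortest annotated coding transcript. Gene positions are those of GENCODE on GRCm38, the build of mm10. Samples were grouped by their titles, and each is 1 culture of 1 mouse. Since the labels give mice 4 and 5 a library of each culture, the mouse was also fitted as a block. Deviations from the group means correlated at -0.05 within mouse 4 and at -0.11 within mouse 5 (12577 genes). All members were named, with the JAK kinases and, per pathway list, up to 4 genes per direction with an adjusted p below 0.05 and an absolute log2 change of at least 1, and some genes that this rule names are not reported here. The fit was tested on simulated data. Alternatives were values as deposited, upper quartile scaling, no intensity trend, a pseudocount of 0.1, a filter at a mean of 1 FPKM, the block, the mouse as a random effect, mice 4 and 5 only, leaving out each library and, chosen after seeing the data, leaving out the 2D libraries of mice 3 and 4.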

Additional observations from a re-analysis of the deposited data

Results flagged for a closer look

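In 19 groups of 4 libraries with values above 0, the highest or lowest library was compared with its nearest neighbour by Dixon's ratio, and 2 groups passed the critical value. Chance gives such a gap in about 1 in 20 groups. Il6ra in the 2D library of mouse 5 lay at 3.09 normalized FPKM, apart from the 1.84 to 1.98 FPKM of the other 2D libraries. Stat3 in the 3D library of mouse 1 lay at 76.4 normalized FPKM, apart from the 47.5 to 51.3 FPKM of the other 3D libraries. The same library held the highest Il6st and the lowest Lif and Clcf1 levels of the 3D libraries.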

How the results depend on the processing

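Of 170 values of members under 17 alternatives, 155 kept their direction and their side of the threshold, 4 lost a call, 5 gained one and 6 reversed. No reversed value was called under either setting. Il6ra was -0.0878 with the mouse as a block and -0.0890 in mice 4 and 5 only, where Il6st was -0.0681 and -0.0649. Osmr was 0.0379 without the 2D libraries of mice 3 and 4. When single libraries were left out, Clcf1 ranged from -0.659 to 0.192, above 0 only without the 3D library of mouse 1. Of 323 values of 19 named pathway genes, 274 kept their direction and side, 48 lost a call and 1 reversed, Jak2, which ranged from -0.0103 without the 3D library of mouse 4 to 0.386 without that of mouse 1. With the mouse as a block (1 residual degree of freedom) the counts of members called, members lower, all genes and pathway genes were each 0 in limma, with 5216 of 18862 genes and 4 of 10 members at an unadjusted p below 0.05. In mice 4 and 5 only, 3220 genes were called. Under upper quartile scaling 1 member was higher, beside 4904 of 18862 genes. Without the 2D libraries of mice 3 and 4, 4 members were called, 2 of them higher, beside 7766 of 18428 genes called. Leaving out each library in turn gave 1 to 3 members called, 0 to 1 higher and 1 to 2 lower, 6672 to 7534 genes and 21 to 30 pathway genes. The causes were not tested. Depth limits Il11 in 3D, which rests on about 1 to 5 fragments per library.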

Other observations

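Some genes of the STAT3 target list, picked after their values were seen, also divided the 2D libraries, in either direction. Saa3, serum amyloid A3, had normalized FPKM of 83.5 (mouse 3) and 42.6 (mouse 4) in 2D culture and at most at 0.847 FPKM in any other library. Hp, haptoglobin, lay at 9.11 and 5.55 FPKM in these 2 libraries and at most at 0.597 FPKM elsewhere. Cebpb lay at 126.0 and 135.3 FPKM there, at 43.0 and 32.7 FPKM in 2D culture of mice 2 and 5, and at 115.5 to 150.3 FPKM in 3D. Bcl3 lay at 12 and 8.53 FPKM there, at 3.06 and 1.73 FPKM in mice 2 and 5, and at 9.22 to 14.7 FPKM in 3D. None of these 4 passed the comparison of 3D with 2D, with adjusted p of 0.120, 0.220, 0.151 and 0.135 (limma). Timp1, Birc5, Myc and Twist1 of the same list divided the 2D libraries the other way. Timp1 lay at 648 and 767 FPKM in mice 3 and 4 and at 1339 and 1294 FPKM in mice 2 and 5. The genes dividing in each direction were not counted, over the list or over all genes.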
